A study of Mus musculus with 116 samples.

Results

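Atf4 and 7 enzymes of serine, asparagine and folate metabolism were followed in the mouse myeloid cell line FDB1 over 18 conditions. The 8 genes are Atf4, Phgdh, Psat1, Psph, Shmt1, Shmt2, Mthfd2 and Asns. They were taken by gene symbol in the annotation of the array, and earlier results of these data were known when they were chosen. Each of the 8 genes had exactly 1 array feature, out of 21797 features tested for 15097 gene symbols.

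ATF4 is a transcription factor whose translation rises when the kinases that phosphorylate the initiation factor eIF2 sense amino acid shortage or other stress, and growth signals through mTORC1 also raise it. Its known target genes include the enzymes that make serine and asparagine, the mitochondrial enzymes that pass the side carbon of serine to folate, amino acid transporters and tRNA synthetases. Proliferating cells use serine and one-carbon folates for purines, thymidylate and methylation, and in blood cell precursors this demand falls when the cells stop dividing and mature.

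FDB1 cells depend on a growth factor: interleukin 3 (IL-3) keeps them dividing, and GM-CSF drives them towards granulocytes and macrophages. Parental cells were sampled at 0 h in IL-3 (500 U/mL, with 10% fetal calf serum). They were then washed 3 times and kept in GM-CSF (500 U/mL) for 6, 12, 24, 48 or 72 h. Lines expressing the receptor mutants V449E or FI-Delta were sampled at 0 h in IL-3 and after the same washing and hours without factor. From background knowledge, both are activated forms of the shared beta chain of the IL-3 and GM-CSF receptors, V449E being known for growth without factor and FI-Delta for differentiation without factor. The labels give no clone, vector or promoter of the lines, and the beginning of the GM-CSF course is the parental RNA in IL-3, not a sample in GM-CSF.

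Each condition had 2 replicate RNAs, which the labels do not describe as separate cultures, so the tests measure the spread between these RNAs and this may be technical. The arrays form 58 dye-swapped pairs over 28 compared pairs of conditions. Over all features, the correlation between the replicates' levels ran from 0.246 at 24 h of GM-CSF to 0.774 at 72 h of FI-Delta. Levels below are log2 values relative to the mean of all 18 conditions of the same replicate, so they order the conditions of 1 gene and say nothing about which gene is more abundant. Signs assume that Cy5 was divided by Cy3, the likely orientation because limma, which the submitters' processing notes name, writes ratios that way, but neither orientation nor log base is stated. With ratios alone, signal over background is unknown, and markers could be read as differences but not as present or absent. A difference was called when its adjusted p was under 0.05 (limma, Benjamini-Hochberg over all 21797 features). The standard error (SE) of a difference between any 2 conditions is 0.23 for Atf4, 0.11 for Phgdh, 0.14 for Psat1, 0.16 for Psph, 0.097 for Shmt1, 0.12 for Shmt2, 0.15 for Mthfd2 and 0.13 for Asns, on the log2 scale. In RNA of a whole culture, fewer cells of a type and less RNA per cell cannot be told apart.

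Promoter windows of the 8 genes were searched for the C/EBP-ATF response element core, TGATGNAA, the kind of site that ATF4 binds with C/EBP proteins, and for the E-box CACGTG. Both strands were searched, and the E-box reads the same on both. The windows run from 250 bases before to 50 bases after a transcript start (RefSeq, GRCm38.p6), and all 8 genes matched, Psat1 with 2 windows. Only the Asns window held the TGATGNAA core, once, 23 bases before the start, and none of the 8 genes held CACGTG. Of all 32851 windows in the same table, 3.97% held the core and 7.15% held CACGTG. The Asns window is shown with the core in capitals, beside those of Phgdh and Psat1, which had the largest falls of the 8 genes at 72 h in FI-Delta cells and hold neither set of letters. All 3 windows lie on the minus strand, at chr6:7693160-7693459, chr3:98339920-98340219 and chr19:15925010-15925309.
Asns: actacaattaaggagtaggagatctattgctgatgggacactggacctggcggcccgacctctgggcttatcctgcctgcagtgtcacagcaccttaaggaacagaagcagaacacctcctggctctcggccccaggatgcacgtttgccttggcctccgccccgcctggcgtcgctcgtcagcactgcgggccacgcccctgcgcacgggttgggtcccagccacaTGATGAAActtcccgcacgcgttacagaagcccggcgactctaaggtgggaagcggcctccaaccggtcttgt
Phgdh: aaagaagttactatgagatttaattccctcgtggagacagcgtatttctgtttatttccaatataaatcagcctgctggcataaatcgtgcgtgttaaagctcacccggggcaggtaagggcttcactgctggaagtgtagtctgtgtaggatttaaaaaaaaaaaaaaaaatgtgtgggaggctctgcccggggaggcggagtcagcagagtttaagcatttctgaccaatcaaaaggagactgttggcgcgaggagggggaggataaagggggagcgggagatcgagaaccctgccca
Psat1: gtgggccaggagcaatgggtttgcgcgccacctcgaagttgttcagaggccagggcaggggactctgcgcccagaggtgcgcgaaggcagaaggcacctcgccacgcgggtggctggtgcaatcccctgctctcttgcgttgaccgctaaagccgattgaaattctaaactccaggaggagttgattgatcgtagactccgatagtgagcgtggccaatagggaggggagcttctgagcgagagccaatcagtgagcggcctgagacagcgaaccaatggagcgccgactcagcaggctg

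Most of the group fell together within 12 h of IL-3 removal in all 3 courses and then separated by line. Atf4, Psat1, Shmt2, Mthfd2 and Asns were lower at 12 h with GM-CSF, in V449E cells and in FI-Delta cells, and Psph was lower with GM-CSF and in FI-Delta cells. In V449E cells no member was called against 0 h at 48 or 72 h, although all 8 lay below 0 at 72 h. In FI-Delta cells 6 members were still lower at 72 h, among them Phgdh, the first enzyme of serine synthesis, which was called at 48 and 72 h and not before. No member was called higher than its own 0 h at any time, and Shmt1, the cytosolic serine hydroxymethyltransferase, was called in none of the 28 comparisons.

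**Figure D1:**
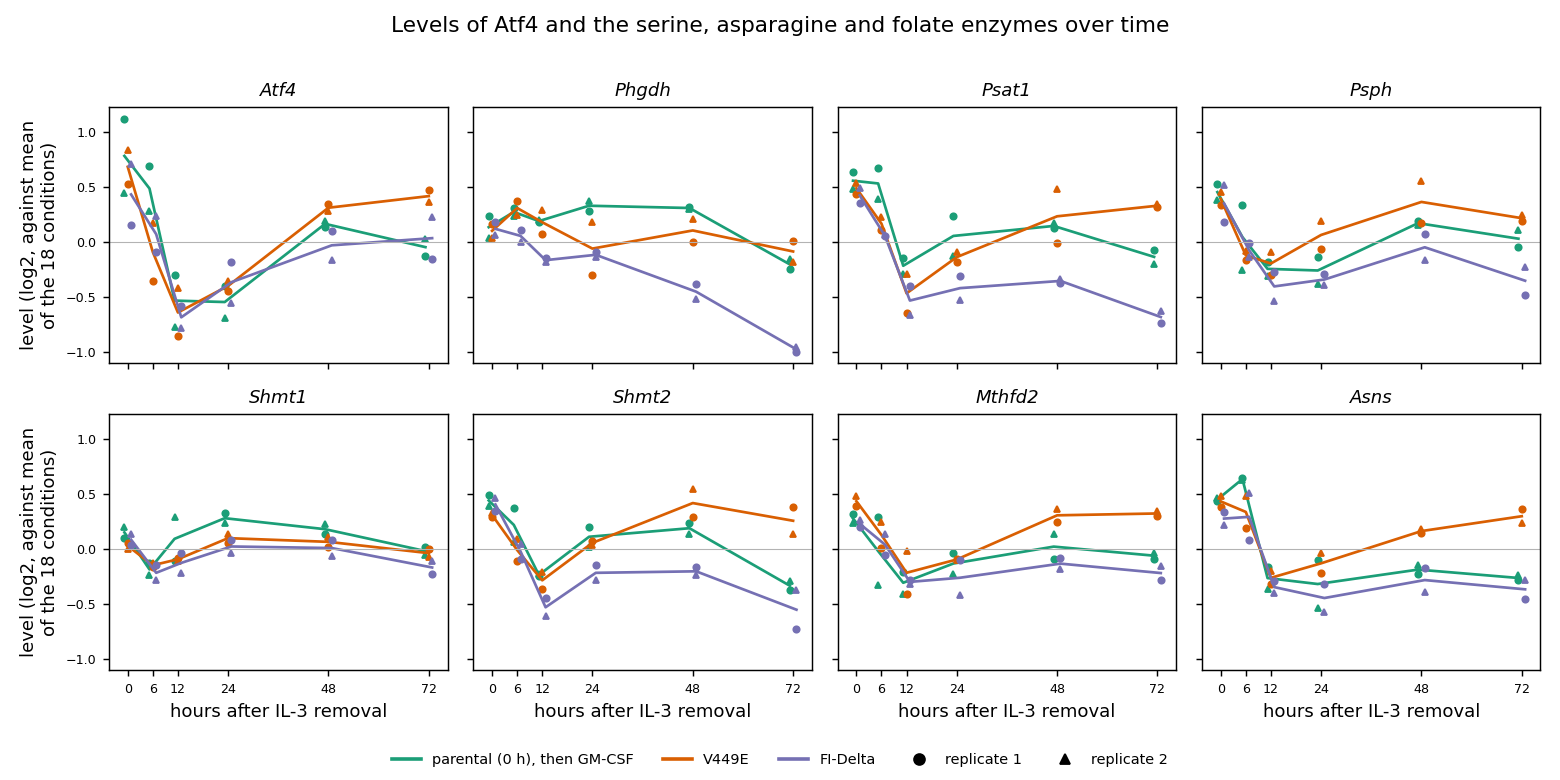
Levels of the 8 genes by hours after IL-3 removal, on the log2 scale relative to the mean of the 18 conditions; lines join the means of 2 replicates, circles are replicate 1 and triangles replicate 2, and the GM-CSF line begins at the parental 0 h RNA. The Atf4 panel reaches its lowest mean at 12 h in FI-Delta cells (-0.69), and the Phgdh panel at 72 h in the same line (-0.98).

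Counted over all 8 genes, the GM-CSF course had 0, 6, 3, 1 and 4 members lower at 6, 12, 24, 48 and 72 h. The shares of all features called lower at those times were 0.151%, 1.7%, 0.284%, 0.573% and 2.55%. The V449E course had 0, 5, 3, 0 and 0 members lower, beside 0.312%, 0.739%, 0.743%, 0% and 0% of all features. The FI-Delta course had 0, 6, 4, 4 and 6, beside 0.427%, 3.28%, 0.509%, 2.01% and 8.51%. At 48 and 72 h no feature at all was called lower in V449E cells, so the absence of calls there is not particular to these genes. At an unadjusted p under 0.05 (limma) 0 members were lower at either time in V449E cells, beside 711 and 360 of 21797 features. At 6 h, where 0 passed after adjustment, 2 members were lower with GM-CSF, 4 in V449E cells and 4 in FI-Delta cells. Over all features 1166, 940 and 1143 were lower at 6 h by the same threshold. The median member difference at 12 h was -0.69 with GM-CSF, -0.62 in V449E and -0.69 in FI-Delta cells, against 0.01, 0.01 and 0.01 over all features. At 72 h in V449E cells it was -0.15, against -0.0005 over all features.

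Several of these counts rested on single RNAs. The 12 h GM-CSF count of 6 was 0 without parental 0 h replicate 1 and 3 without GM-CSF 12 h replicate 1 or replicate 2. The 12 h V449E count of 5 was 0 without V449E 0 h replicate 2, 1 without V449E 12 h replicate 1 and 2 without V449E 0 h replicate 1. The 12 h FI-Delta count of 6 was 2 without FI-Delta 12 h replicate 2 or FI-Delta 0 h replicate 2. At 24 h the V449E count of 3 was 0 without any 1 of its 4 RNAs. The FI-Delta count of 4 at 24 h was 0 without FI-Delta 24 h replicate 2 or FI-Delta 0 h replicate 1 and 1 without FI-Delta 0 h replicate 2, and the GM-CSF count of 3 was 1 without GM-CSF 24 h replicate 2 or parental 0 h replicate 1. The 48 h FI-Delta count of 4 was 2 without FI-Delta 48 h replicate 2 or either FI-Delta 0 h replicate, and the 72 h GM-CSF count of 4 was 2 without GM-CSF 72 h replicate 2 or parental 0 h replicate 1. Over the 28 comparisons there were 54 member calls, of which 15 held without any 1 of the 4 RNAs compared. Those 15 are Shmt2 and Asns at 72 h of GM-CSF, Psat1 and Shmt2 at 12 h of FI-Delta, Psat1 at 48 h of FI-Delta, and Phgdh, Psat1, Shmt2 and Asns at 72 h of FI-Delta. The others are the same 4 genes in V449E against FI-Delta at 72 h, and Phgdh in FI-Delta against GM-CSF at 48 and 72 h.

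Atf4, the regulator of the group, had its highest level in parental cells in IL-3, at 1.12 and 0.44 in replicates 1 and 2. With GM-CSF its level was 0.68 and 0.28 at 6 h, -0.30 and -0.77 at 12 h, and -0.40 and -0.69 at 24 h. It then came back in part, to 0.14 and 0.19 at 48 h and to -0.13 and 0.03 at 72 h. The replicates of the 0 h parental RNA lay further apart than those of any later GM-CSF time, so differences from it carry that spread. Against 0 h, Atf4 was at -1.31 at 12 h (2.49-fold lower, adjusted p = 0.0042) and at -1.33 at 24 h (adjusted p = 0.0030). The difference was -0.62 at 48 h, not called (adjusted p = 0.27), and -0.83 at 72 h, where the replicates gave -1.24 and -0.41 (adjusted p = 0.034). The 72 h call was lost without GM-CSF 72 h replicate 1, GM-CSF 72 h replicate 2 or parental 0 h replicate 1, at -0.47 without the last of these.

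In V449E cells Atf4 stood at 0.53 and 0.83 at 0 h and at -0.36 and 0.17 at 6 h. It reached -0.86 and -0.42 at 12 h and -0.45 and -0.36 at 24 h. At 48 h both replicates were back above the mean of the conditions, at 0.34 and 0.28, and at 72 h at 0.47 and 0.36. The fall was -1.32 at 12 h (adjusted p = 0.0045) and -1.08 at 24 h (adjusted p = 0.023), while the 72 h value of -0.27 was not called. The 12 h call was lost without V449E 12 h replicate 1 or V449E 0 h replicate 2, and the 24 h call without any 1 of its 4 RNAs.

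In FI-Delta cells the level of Atf4 was 0.15 and 0.71 at 0 h and -0.59 and -0.79 at 12 h. By 72 h it was -0.16 and 0.22, and replicate 2 at 72 h lay above replicate 1 at 0 h, so these groups overlap. The difference was -1.12 at 12 h (adjusted p = 0.0064) and -0.40 at 72 h (adjusted p = 0.29). Without FI-Delta 12 h replicate 2 or FI-Delta 0 h replicate 2 the 12 h call was lost. The mean of Atf4 was lowest at 12 h in this line and that of Phgdh at 72 h. Psat1 and Shmt2 did not pass between 72 and 12 h, at -0.15 (replicates -0.34 and 0.04) and -0.02 (replicates -0.28 and 0.24).

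Phgdh encodes phosphoglycerate dehydrogenase, which draws 3-phosphoglycerate from glycolysis into serine synthesis, and it followed a course of its own. Its level with GM-CSF ran from 0.23 and 0.03 at 0 h to 0.28 and 0.37 at 24 h and to -0.25 and -0.16 at 72 h. In V449E cells it stayed between -0.30 and 0.37 over all times and replicates. In FI-Delta cells it was 0.18 and 0.06 at 0 h, -0.15 and -0.18 at 12 h, -0.39 and -0.52 at 48 h and -0.998 and -0.957 at 72 h. The last pair lies below every other Phgdh level in the series, and the replicates there differ by less than at most other times. Against 0 h, Phgdh in FI-Delta cells was at -0.57 at 48 h (adjusted p = 0.0052) and at -1.09 at 72 h (2.14-fold lower, adjusted p = 1.4e-06). Its values of -0.28 at 12 h (unadjusted p = 0.020, adjusted p = 0.16) and -0.24 at 24 h were already below 0 in both replicates and not called. With GM-CSF the 72 h difference was -0.34 and not called (adjusted p = 0.092). The 72 h call in FI-Delta cells held without any 1 of the 4 RNAs, while the 48 h call was lost without FI-Delta 48 h replicate 2 or FI-Delta 0 h replicate 1.

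Psat1, the aminotransferase that follows Phgdh, fell both early and late. In FI-Delta cells its level went from 0.35 and 0.49 at 0 h to -0.41 and -0.66 at 12 h, and it was -0.38 and -0.34 at 48 h and -0.74 and -0.63 at 72 h. The differences from 0 h were -0.95, -0.84, -0.78 and -1.10 at 12, 24, 48 and 72 h, and all 4 passed, the last with an adjusted p of 1.7e-05. In V449E cells the level was 0.44 and 0.54 at 0 h, -0.65 and -0.29 at 12 h and 0.31 and 0.34 at 72 h. The V449E difference was -0.95 at 12 h (adjusted p = 0.0014), -0.63 at 24 h (adjusted p = 0.028) and -0.16 at 72 h, which was not called. With GM-CSF, Psat1 was called at 12 h (-0.77) and at 72 h (-0.69, adjusted p = 0.0040), and its values of -0.50 at 24 h and -0.41 at 48 h were not called. The 72 h GM-CSF call of Psat1 was lost without GM-CSF 72 h replicate 2 or parental 0 h replicate 1.

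Psph, the phosphatase that completes serine synthesis, moved less. Its level in FI-Delta cells was 0.18 and 0.52 at 0 h, -0.28 and -0.53 at 12 h and -0.48 and -0.23 at 72 h. It was lower by the test at 12 h (-0.75, adjusted p = 0.0072), 24 h (-0.69, adjusted p = 0.026) and 72 h (-0.70, adjusted p = 0.0036), and at 48 h its -0.40 was not called. With GM-CSF it was at -0.70 at 12 h and -0.71 at 24 h, both called, and at -0.42 at 72 h, not called. In V449E cells its 12 h value of -0.59 missed the threshold (adjusted p = 0.072). Leaving out FI-Delta 72 h replicate 1 or FI-Delta 0 h replicate 2 ended the 72 h call in FI-Delta cells.

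Shmt2, the mitochondrial enzyme that splits serine into glycine and a folate-bound carbon, repeated the course of Psat1. Its level in FI-Delta cells was 0.35 and 0.46 at 0 h, -0.45 and -0.61 at 12 h, -0.17 and -0.24 at 48 h and -0.73 and -0.38 at 72 h. Differences from 0 h were -0.93 at 12 h (adjusted p = 9.3e-05), -0.62 at 24 h, -0.61 at 48 h and -0.96 at 72 h (adjusted p = 1.1e-05), all called. In V449E cells it went from 0.29 and 0.33 at 0 h to -0.36 and -0.21 at 12 h and back to 0.29 and 0.54 at 48 h. Only the 12 h difference of -0.59 was called in that line (adjusted p = 0.012). With GM-CSF the level fell from 0.49 and 0.39 at 0 h to -0.25 and -0.23 at 12 h, returned to 0.24 and 0.14 at 48 h, and was -0.37 and -0.30 at 72 h. The GM-CSF differences that passed were -0.68 at 12 h and -0.77 at 72 h (adjusted p = 0.00028), and the values at 6, 24 and 48 h were not called.

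Mthfd2, the mitochondrial dehydrogenase and cyclohydrolase that takes up the carbon released by Shmt2, showed smaller differences. It was called lower at 12 h in each course, at -0.58 with GM-CSF, -0.65 in V449E and -0.53 in FI-Delta cells, and again at 72 h in FI-Delta cells at -0.45 (adjusted p = 0.044). Its lowest mean was at 12 h with GM-CSF, from -0.21 and -0.41, while single replicates at 24 h of FI-Delta and 12 h of V449E were as low. Leaving out any 1 of the 4 RNAs ended the 72 h call, and scaling the arrays to a common spread took its difference to -0.32 (adjusted p = 0.25). Shmt1, which carries out the Shmt2 reaction in the cytosol, had the narrowest spread of the 8 genes, with condition means from -0.22 to 0.28. Its lowest adjusted p among the time courses was 0.085, at 72 h of FI-Delta, where the difference was -0.25. Its falls at 6 h were larger and not called. They were -0.34 with GM-CSF (limma, unadjusted p = 0.0021, adjusted p = 0.14) and -0.30 in FI-Delta cells (unadjusted p = 0.0050, adjusted p = 0.18).

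Asns, asparagine synthetase, was called in 12 of the 28 comparisons, more than any other member. With GM-CSF its level was 0.43 and 0.46 at 0 h and still high at 6 h, at 0.64 and 0.63. It was -0.16 and -0.37 at 12 h, -0.10 and -0.53 at 24 h, -0.23 and -0.15 at 48 h and -0.29 and -0.24 at 72 h. From 12 h on no GM-CSF replicate of Asns reached either 0 h replicate. Phgdh and Shmt1, which were not called, did not overlap with 0 h at 72 h of GM-CSF either. The share of all features without such overlap was not counted. The Asns differences were -0.71, -0.77, -0.64 and -0.71 from 12 to 72 h, all called. In FI-Delta cells Asns was also called at the last 4 times, at -0.62, -0.72, -0.56 and -0.64. In V449E cells it was called at 12 h (-0.69) and 24 h (-0.56) and not at 48 h (-0.27) or 72 h (-0.13). Without any 1 of its 4 RNAs the 48 h GM-CSF call of Asns was lost, while those at 72 h of GM-CSF and of FI-Delta held. For FI-Delta against parental cells at 0 h, replicate 1, the 2 dye orientations of Asns disagreed, at 2.13 and -0.59. Their mean of 0.77 entered the replicate 1 levels of both 0 h RNAs, and its effect on the Asns differences was not tested.

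**Figure D2:**
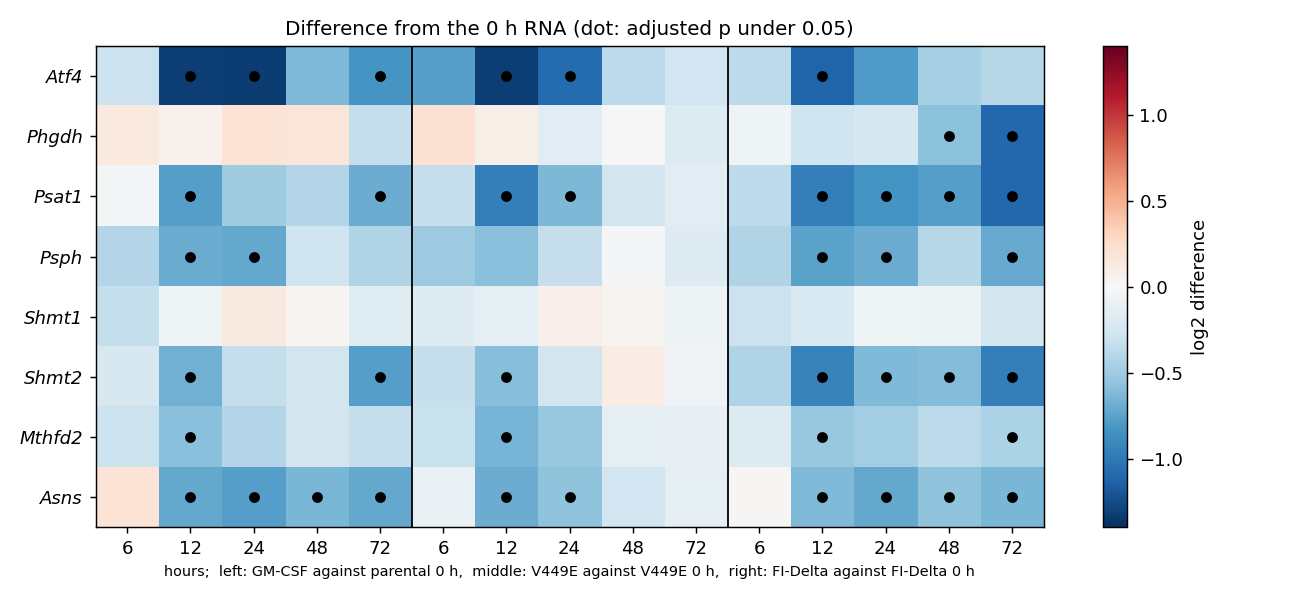
Differences from the 0 h RNA of the same course, log2 scale in colour from -1.4 to 1.4, for the 8 genes in rows and 6, 12, 24, 48 and 72 h of the 3 courses in columns; a dot marks an adjusted p under 0.05. The V449E block has dots at 12 and 24 h and none at 48 and 72 h, while the FI-Delta block has 6 dots at 72 h.

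To see which genes came back after 12 h, 48 and 72 h were set against 12 h within each course, a comparison chosen after the data had been seen and joined through arrays that did not pair these RNAs. In V449E cells Atf4 was 1.06 higher at 72 h than at 12 h (adjusted p = 0.021), Psat1 0.80, Shmt2 0.54 and Asns 0.56 higher. These are 4 of 8 members at 72 h, beside 1.07% of all features higher, and Atf4, Psat1 and Shmt2 were already higher at 48 h, beside 1.25%. In FI-Delta cells 0 members were higher at 48 h (0.564% of all features) or 72 h (1.9%), with Atf4 at 0.72 at 72 h and not called (adjusted p = 0.084). Phgdh was lower at 72 h than at 12 h in FI-Delta cells, by -0.81, beside 1.97% of all features. With GM-CSF, Shmt2 was higher at 48 h (0.42, beside 4.32%) and 0 members were at 72 h (3.96%), when Phgdh was lower at -0.39 (2.99%). The V449E count at 72 h was 0 without V449E 12 h replicate 1, 1 without V449E 72 h replicate 1 and 2 without V449E 72 h replicate 2 or V449E 12 h replicate 2. That at 48 h was 0 without V449E 48 h replicate 2 and 1 without V449E 12 h replicate 1. Both GM-CSF calls were lost without any 1 of their RNAs, and the Phgdh call in FI-Delta cells held without each.

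V449E and FI-Delta cells were compared on shared arrays at every hour. At 0, 6, 12 and 24 h no member was called higher in V449E cells, beside 0.115%, 0.376%, 0.436% and 1.47% of all features. At an unadjusted p under 0.05 (limma) 0, 1, 1 and 3 members were higher, beside 580, 925, 1047 and 1368 of 21797 features. At 48 h Phgdh, Psat1, Shmt2 and Asns were higher in V449E cells, 4 of 8 beside 3.69%, and at 72 h Psph and Mthfd2 joined them, 6 of 8 beside 9.02%. The 72 h differences were 1.01 for Psat1 (2.02-fold, adjusted p = 2.0e-05), 0.89 for Phgdh, 0.81 for Shmt2, 0.66 for Asns, 0.57 for Psph and 0.54 for Mthfd2. The level of Psat1 at 72 h was 0.31 and 0.34 in V449E cells against -0.74 and -0.63 in FI-Delta cells, and that of Phgdh was 0.00 and -0.18 against -0.998 and -0.957. Neither gene overlaps between the lines, but Atf4 and Shmt1, which were not called, do not overlap there either. The share of all features without overlap was not counted. Atf4 itself was 0.38 higher at 72 h, which was not called (adjusted p = 0.30), and Shmt1 was 0.13 higher.

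The 48 h count of 4 was 0 without V449E 48 h replicate 2 and 2 without FI-Delta 48 h replicate 1. At 72 h the calls of Psph and Mthfd2 were lost without V449E 72 h replicate 1, V449E 72 h replicate 2 or FI-Delta 72 h replicate 1, leaving 4, and also when arrays were scaled to a common spread. Markers of other cell types differed between the same RNAs at 72 h, where 7.65% of all features were lower in V449E cells. Of 8 neutrophil granule features 6 were lower in V449E cells, of 8 macrophage features 4 were lower and 2 higher, and of 6 mast cell features 4 were higher. Their part in the member differences was not tested.

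**Figure D3:**
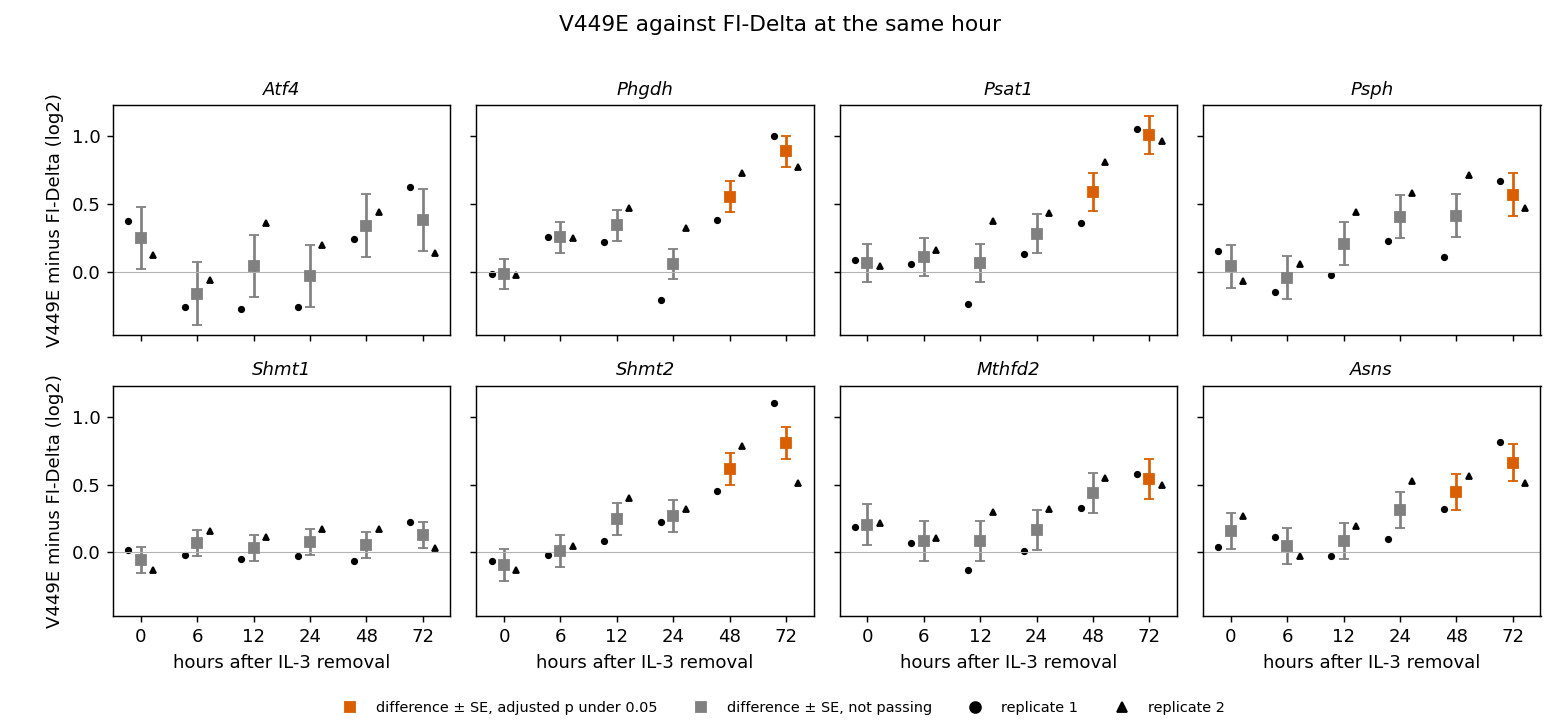
V449E minus FI-Delta at the same hour on the log2 scale for the 8 genes; squares are the fitted difference with its SE, orange where the adjusted p is under 0.05, and black points are the 2 replicates. All squares lie within 0.5 of 0 up to 24 h, and Psat1 reaches 1.01 at 72 h.

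Whether the change from 0 h differed between courses was tested directly. At 72 h the change in FI-Delta cells was further down than that in V449E cells by -0.91 for Phgdh (SE 0.16, adjusted p = 0.0029), -0.95 for Psat1 (SE 0.20, adjusted p = 0.010) and -0.90 for Shmt2 (SE 0.17, adjusted p = 0.0042). These are 3 of 8 members, beside 2.18% of all features called in that direction. Between GM-CSF and V449E only Shmt2 passed at 72 h (-0.72, adjusted p = 0.044; 0.317% of all features), and between FI-Delta and GM-CSF no member did (0%). At 24 h no member passed in any of the 3 contrasts, where 0.00459%, 0% and 0% of all features were called lower. At an unadjusted p under 0.05 (limma) 1 member passed in each of those contrasts. Shmt2 was lower in FI-Delta minus V449E (-0.37) and Phgdh was lower in FI-Delta minus GM-CSF (-0.43). Phgdh was higher, not lower, in GM-CSF minus V449E (0.36). Between FI-Delta and GM-CSF at 72 h 1 member passed, Phgdh at -0.76. In each of these contrasts, fewer features passed by that threshold in each direction than the 2.18% called above. Every one of the calls at 72 h missed the threshold when arrays were scaled to a common spread. Without FI-Delta 72 h replicate 1, FI-Delta 0 h replicate 2 or V449E 0 h replicate 2 the Psat1 call was lost (highest adjusted p 0.062), while those of Phgdh and Shmt2 against V449E held under all 8 omissions. The GM-CSF call of Shmt2 held under 1 of 8 omissions and was also lost on print run 1 alone and with direct pairs, where Asns passed between FI-Delta and V449E (-0.67, adjusted p = 0.044).

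FI-Delta cells without factor and parental cells in GM-CSF were also hybridised together, and these are the 2 courses associated with maturation. Phgdh was lower in FI-Delta cells at 48 h (-0.76, adjusted p = 0.0027) and at 72 h (-0.77, adjusted p = 0.0010), and both calls held without any 1 of their RNAs. On the 4 arrays of the 72 h pair the Phgdh ratio was -0.74, -0.67, -0.73 and -0.97, so both dye orientations and both print runs gave the same sign. No other member was called at any hour, which leaves 0, 0, 0, 1 and 1 members lower at 6, 12, 24, 48 and 72 h beside 0.0734%, 0.078%, 0.0413%, 0.078% and 0.372% of all features. At an unadjusted p under 0.05 (limma), 2, 4, 4, 3 and 3 members were lower, beside 694, 675, 1135, 957 and 1403 of 21797 features. Psat1 at 72 h was at -0.55 with an adjusted p of 0.064, and without the replicate block it passed (adjusted p = 0.046). Asns differed by -0.10 and Atf4 by 0.08 at 72 h, neither called.

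**Figure D4:**
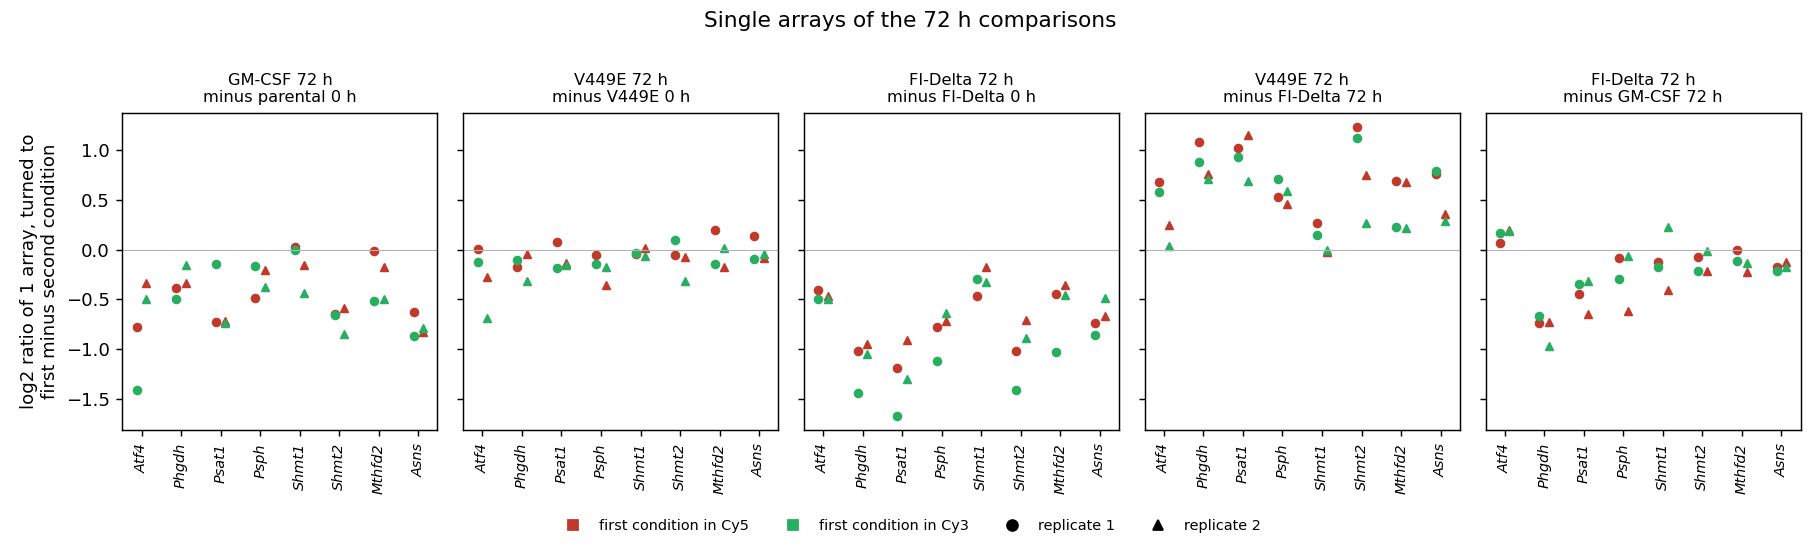
The single arrays of the 72 h comparisons, each ratio turned to first minus second condition (log2 scale); red marks the first condition in Cy5 and green in Cy3, circles replicate 1 and triangles replicate 2. All 4 Psat1 arrays of V449E minus FI-Delta lie above 0.69, and all 4 Phgdh arrays of FI-Delta minus GM-CSF lie below -0.67.

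In IL-3 no member was called between any 2 of the lines, and 0 members passed an unadjusted p of 0.05 (limma). By that threshold 580 of 21797 features were higher and 598 lower in V449E than in FI-Delta cells. Against parental cells, 930 were higher and 939 lower in V449E cells. In FI-Delta against parental cells 247 were lower and fewer than 580 higher. So few passed over all features that 0 of 8 is not particular to these genes. V449E against parental cells at 0 h gave differences from -0.13 to 0.16, with 0 members lower beside 0.271% of all features, and FI-Delta against parental cells gave 0 beside 0.0138%. Of the marker features, 2 of 8 neutrophil granule features were lower in V449E than in parental cells, and 1 of 8 macrophage and 1 of 6 mast cell features were higher, beside 0.463% of all features. The widest member difference in IL-3 was that of Atf4, at -0.35 in FI-Delta against parental cells, where the replicates had opposite signs (-0.97 and 0.27). The Atf4 level of parental replicate 1 at 0 h, 1.12, was the highest Atf4 value of the series. Against V449E cells it was measured on both print runs, and both put replicate 1 of V449E lower (-0.74 and -0.44) and replicate 2 higher (0.57 and 0.22).

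Replicate 2 of the whole GM-CSF course was on print run 2 and replicate 1 on print run 1, so replicate and print run cannot be told apart there. On print run 1 alone the GM-CSF 72 h count went from 4 to 2, with Atf4 at -0.78 (adjusted p = 0.19) and Psat1 at -0.58 (adjusted p = 0.054) no longer called. That fit has 1 RNA for each GM-CSF time and assumes that it varies like the other groups.

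Genes around the pathway were read from lists that were chosen with earlier results of these data known. Of 15 features for folate and one-carbon enzymes, 6 were lower and 1 higher at 72 h in FI-Delta cells, beside 8.51% and 6.75% of all features, with a median of -0.21. Ahcy, which clears S-adenosylhomocysteine after methylation, was at -1.05 (adjusted p = 4.8e-06), Gcsh, a part of the glycine cleavage system, at -0.72, and Fpgs, which adds glutamates to folate, at -0.65. With GM-CSF at 72 h 2 were lower, Ahcy at -0.71 and Mthfd1, the cytosolic folate enzyme, at -0.35, and 1 was higher, Mthfs at 0.50, beside 2.55% and 2.92%. In V449E cells at 24 h Mthfs alone passed, at 0.49, beside 0.702% of all features higher. The FI-Delta count of 7 fell to 4 without FI-Delta 0 h replicate 1, the GM-CSF count of 3 fell to 1 on print run 1 alone or without GM-CSF 72 h replicate 2 or parental 0 h replicate 1, and the V449E call was lost without any 1 RNA.

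Purine synthesis enzymes, which use the folate-bound carbon, had 4 of 11 features lower at 72 h in FI-Delta cells and 0 called at 72 h with GM-CSF or at 24 h in V449E cells, beside 8.51%, 2.55% and 0.743% of all features lower. At an unadjusted p under 0.05 (limma) 3 were lower with GM-CSF and 3 higher in V449E cells, beside 1830 and 1215 of 21797 features. Gart was at -0.89, Atic at -0.73 and Prps2 at -0.50 in FI-Delta cells. The count was 2 without FI-Delta 72 h replicate 1 or with scaled arrays, and 7 with levels weighted by their number of arrays. Of 14 features for other amino acid synthesis enzymes, 6 were lower in FI-Delta cells at 72 h, also beside 8.51%, Bcat1 at -0.46, Aldh18a1, which begins proline synthesis, at -0.44 and Got1 at -0.43. That count was 2 without FI-Delta 0 h replicate 2. With GM-CSF only Bcat1 passed, at -0.27, and it was lost without GM-CSF 72 h replicate 1, GM-CSF 72 h replicate 2 or parental 0 h replicate 2, with scaled arrays, with direct pairs and on print run 1 alone.

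Other genes known as ATF4 targets had list medians of -0.27 at 72 h with GM-CSF, -0.26 at 24 h in V449E cells and -0.20 at 72 h in FI-Delta cells, with single genes called in both directions. Of 27 features, 7 were lower and 2 higher at 72 h in FI-Delta cells, beside 8.51% and 6.75% of all features, led by the amino acid transporters Slc7a5 (-0.82) and Slc1a5 (-0.77) and by Xpot (-0.73), the exporter of tRNA. With GM-CSF at 72 h 6 were lower and 1 higher, beside 2.55% and 2.92%, among the lower ones Stc2 (-0.78) and Slc3a2 (-0.77), and Cebpb, a myeloid transcription factor with many inputs, was the higher one at 1.03 (adjusted p = 3.2e-05). The GM-CSF count of 7 called was 4 without parental 0 h replicate 1. In V449E cells at 24 h only Slc1a5 passed (-0.43), beside 0.743% of all features lower. At an unadjusted p under 0.05 (limma), 14 of the 27 were lower and 1 higher there, against 1141 and 1215 of 21797 features. With GM-CSF at 72 h 11 of the 27 were lower and 1 higher by that threshold, against 1830 and 1789 features. Counted separately, 11 were lower and 4 higher in FI-Delta cells at 72 h, against 3089 and 2768 features. In V449E cells 5 of this list passed without the replicate block or with scaled arrays, 3 with weighted levels, direct pairs or print run 1 alone, and 0 without any 1 RNA. Among the eIF2 kinases and their partners, which act upstream of ATF4, 3 of 11 features were lower and 2 higher at 72 h in FI-Delta cells, again beside 8.51% and 6.75%. The subunits of the eIF2 exchange factor Eif2b4 and Eif2b1 were at -0.48 and -0.36, and the phosphatase partner Ppp1r15b was at 0.40. With GM-CSF 1 was lower, Eif2b1 at -0.32, and 1 higher, the kinase Eif2ak2 at 0.22, beside 2.55% and 2.92%. A further Eif2ak2 feature in the list was not called there. The FI-Delta count of 5 was 0 without FI-Delta 72 h replicate 1, 2 without any other 1 of its RNAs and 1 with scaled arrays, and the GM-CSF count of 2 was 0 without parental 0 h replicate 1 or 2 and 1 without GM-CSF 72 h replicate 1 or 2.

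Markers of cell maturation moved in the same samples, and their part in the results above was not tested. The shares of all features called higher were 2.92% at 72 h with GM-CSF, 0.702% at 24 h in V449E cells and 6.75% at 72 h in FI-Delta cells, and those called lower were 2.55%, 0.743% and 8.51%. Of 8 macrophage features, 5 were higher with GM-CSF at 72 h, 3 in V449E cells at 24 h, and 5 higher and 1 lower in FI-Delta cells at 72 h, with Ctss at 1.54, 1.06 and 1.30. Of 8 neutrophil granule features, 2 were higher with GM-CSF and 4 in FI-Delta cells, led by Mmp8 at 2.20 (replicates 1.61 and 2.80) and Ltf at 2.68 (replicates 3.26 and 2.10). Of 6 mast cell features, 4 were lower in each of these, Cpa3 at -1.70 and -2.87, and 0 were called in V449E cells at 24 h. In V449E cells 2 of them were lower at an unadjusted p under 0.05 (limma), beside 1141 of 21797 features. Of the neutrophil granule features 0 were called in V449E cells at 24 h, and 1 was lower by the unadjusted threshold. Of 4 lymphoid features 0 were called in the 3 comparisons. At an unadjusted p under 0.05 (limma) 0 of them passed with GM-CSF or in V449E cells, and 1 was lower in FI-Delta cells. Over all features 1830, 1141 and 3089 of 21797 were lower by that threshold. Hba-a1 was the erythroid feature called, at -0.72 with GM-CSF, where the replicates were far apart at -0.18 and -1.26.

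The likeness of the courses is given as Pearson's r over the 18 condition means, which share arrays through the network, as a description. Atf4 followed Mthfd2 (r = 0.85), Psph (0.84), Asns (0.79), Psat1 (0.79) and Shmt2 (0.72), but not Phgdh (0.06) or Shmt1 (0.01). Psat1 and Shmt2 were the closest pair of the 8 genes, at 0.92. Among features outside the group, those most like Atf4 were Cars, a tRNA synthetase (0.93), Eif4ebp1, a translation repressor (0.91), and Pdk3 (0.91), and Cars was also the most like Mthfd2 (0.94), followed by Reps1 (0.92) and Chac1 (0.90). Nearest to Psat1 were Yars (0.95), Swi5 (0.94) and Igfbp6 (0.94), and nearest to Shmt2 were Dis3 (0.96), Fkbp3 (0.96) and Nt5c3b (0.96). Asns lay nearest to Mzt1 (0.95), Xpot (0.92) and Nars (0.91), and Psph to Aldh18a1 (0.92), Gdf2 (0.91) and Hmgb1 (0.90). This Xpot feature is a different one from the Xpot feature named above for FI-Delta cells. For Phgdh the 3 highest were Ncs1 (0.90), Sms (0.90) and Psmd9 (0.89), and for Shmt1 they were Srsf1 (0.93), Mthfd1 (0.93) and Wdr61 (0.93). These features were picked as the highest of many, so a high r comes in part from the picking. Within replicates 1 and 2 some were weaker, Ncs1 with Phgdh at 0.75 and 0.56 and Gdf2 with Psph at 0.76 and 0.69. Others were not, such as Dis3 with Shmt2 at 0.98 and 0.91. Between the replicates, r over the 18 levels of a gene ran from 0.61 for Shmt1 and Mthfd2 to 0.87 for Phgdh.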

How the data were processed

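Each array compared 2 RNAs, the first labelled with Cy5 and the second with Cy3, and gave 1 normalised log ratio for each of 23040 spots. The authors deposited these ratios after normalisation and put both print runs in 1 spot order, per the labels, and they were read here as log2; limma is named without a version in the submitters' processing notes, and the background correction, method of normalisation, log base and direction are not given in the sources used here. Array intensities were not used here, so depth is unknown and precision is limited by how many arrays there are.

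Control spots (1243) were left out. Of the 21797 other features, 16651 had 1 symbol, 137 several and 5009 none in the platform annotation. Each of 58 dye-swapped pairs was averaged. Least squares within each replicate gave 36 RNA levels, with 8 to 32 arrays per condition, and limma 3.58.1 in R 4.3.3 (lmFit, eBayes, 2-sided, Benjamini-Hochberg, 17 residual degrees of freedom) fitted condition with the replicate number as a block. The numbers pair the RNAs because each array holds RNAs of 1 replicate number.

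Members, lists and tests were chosen with earlier results of these data known. Named genes are the 8 members and, from each other list, up to 3 passing features with the largest absolute difference at 72 h with GM-CSF, at 24 h in V449E and at 72 h in FI-Delta cells, and the 3 features outside the group most correlated with each member. Alternatives were no block, direct pairs, scaled arrays, weighted levels, print run 1 only, symbol means, a minimum difference of 0.5 and each replicate left out. The contrasts of 48 and 72 h against 12 h were added after the data were seen.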

Additional observations from a re-analysis of the deposited data

Results flagged for a closer look

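In 4 cases the change from 0 h to 72 h differed between courses by a test of the difference itself. The change in FI-Delta cells minus that in V449E cells was -0.91 for Phgdh, with -1.02 and -0.80 in replicates 1 and 2, -0.95 for Psat1, with -0.97 and -0.92, and -0.90 for Shmt2, with -1.17 and -0.64. The change with GM-CSF minus that in V449E cells was -0.72 for Shmt2, with -0.96 and -0.49. When the arrays were scaled to a common spread, the 3 differences against V449E were -0.68 for Phgdh (adjusted p = 0.089), -0.65 for Psat1 (adjusted p = 0.16) and -0.66 for Shmt2 (adjusted p = 0.074), and the GM-CSF difference of Shmt2 was -0.60 (adjusted p = 0.17), all in the same direction.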

How the results depend on the processing

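No member difference that was called in either fit changed sign under any alternative tried. Of the 54 member calls, 54 held without the replicate block and with symbol means, 52 with weighted levels, 50 with direct pairs, 44 with scaled arrays and 44 on print run 1 alone. A minimum difference of 0.5 ended 2 calls, Mthfd2 at 72 h of FI-Delta (-0.45) and Asns in V449E against FI-Delta at 48 h (0.44). Leaving out 1 RNA ended 100 of 216 calls. The GM-CSF 72 h count of 4 was 2 on print run 1 alone and 2 to 4 with 1 replicate left out. The V449E 24 h count of 3 was 0 with each replicate left out, the FI-Delta 72 h count of 6 was 4 to 5, and the count of 6 for V449E against FI-Delta at 72 h was 4 to 6. For FI-Delta against GM-CSF at 72 h the count of 1 was 2 with no replicate block, Psat1 being the addition, and 1 in each omission. The absence of the replicate block changed no other member call. V449E against parental cells at 0 h gave 0 under every alternative. Leaving out 1 RNA leaves a condition with 1 sample, which is assumed to vary like the other groups, and depth or signal over background could not be examined.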

Other observations

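Slc7a11, the cystine transporter and a gene known as a target of ATF4 and of NRF2, ran against the group at 12 h and was picked after its values were seen. It was higher by 1.21 with GM-CSF (adjusted p = 0.0018), by 0.84 in V449E cells (adjusted p = 0.021) and by 1.17 in FI-Delta cells (adjusted p = 0.00064), at the hour when Atf4 itself was lowest against 0 h in V449E and FI-Delta cells. At 72 h V449E cells had less of it than FI-Delta cells (-0.76, adjusted p = 0.0050). Chac1, another known target and also picked after its values were seen, went with the group at 12 h, at -1.04, -1.17 and -0.95 in the same 3 courses, while Ddit3, the stress transcription factor CHOP, was at -0.07, -0.05 and 0.05 and not called.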
